A study of Mus musculus with 27 samples.

Results

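Transcripts of 6 genes of the Abcc family, Abcc1, Abcc2, Abcc3, Abcc4, Abcc5 and Abcc9, were followed in the mouse esophagus. They were found by the gene name that the array's design gives to its probes, which yielded 14 of 41174 probes and 6 of 28508 named genes. All 6 names were present. The mean log2 ratio of the probes of a gene stood for the gene, and spots that the scanner software had marked as outliers were kept. The study put 27 Agilent arrays in 2 colours through 9 groups of 3 mice each, to ask how expression changes while the esophageal lining becomes a stratified squamous epithelium and what loss of Nrf2 or Keap1 does to it. Whole esophagus of wild-type (WT) C57BL/6J mice was taken on gestation days E11.5 and E15.5, at birth (P0) and at postnatal day 7 (P7). Whole esophagus of Nrf2-/-, Keap1-/- and Nrf2-/-Keap1-/- mice, all on the C57BL background, was taken at P7. Only the epithelium was taken from WT and Nrf2-/- adults of 8 weeks. No promoter or cell type restricts the deletions, so a change in whole esophagus cannot be assigned to the epithelium. Each sample was labelled with Cy5 and hybridized against Cy3-labelled RNA pooled from 11 mouse cell lines, so a log2 ratio is a level relative to that pool. In such bulk samples, fewer cells of a type and less RNA per cell cannot be told apart.

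Abcc1, Abcc2, Abcc3, Abcc4 and Abcc5, the multidrug resistance-associated proteins, are membrane pumps that use ATP to move organic anions out of cells, among them drugs and metabolites joined to glutathione, glucuronic acid or sulfate. Abcc9 shares their fold but is known as a regulatory subunit of ATP-sensitive potassium (KATP) channels in muscle and vessel walls, and not as an exporter. Nrf2 is a transcription factor that switches on genes for glutathione synthesis, conjugation and export, and Keap1 delivers it to degradation, so that cells without Keap1 accumulate Nrf2.

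The probes decide what could be read of each gene. Each is 60 bases long, and its position is given on mouse build mm9, as the newer file headers state it. Abcc1 had 3 probes on the plus strand of chromosome 16, of which 2 overlap by 19 bases, so that they count as nearly 1 measurement. Abcc2 had a single probe on chromosome 19, Abcc3 had 2 on chromosome 11, Abcc4 had 2 on chromosome 14, Abcc5 had 3 on chromosome 16 and Abcc9 had 3 on chromosome 6. The overlapping Abcc1 pair, both Abcc3 probes, both Abcc4 probes and the Abcc2 probe are shown with 30 bases each because later results turn on them. Capitals mark the bases shared by the Abcc1 pair, and A_52_P491508 is shown from base 31 to base 60, the others from base 1 to base 30.
Abcc1 A_52_P491508 (chr16:14473557-14473616): tgtggtgcaccCTCTGAGCTCCTGCAGCAA
Abcc1 A_52_P491507 (chr16:14473598-14473657): CTCTGAGCTCCTGCAGCAAagaggcatctt
Abcc2 A_51_P277745 (chr19:43912079-43912138): atttcttagttacttttgttcttgtgactg
Abcc3 A_51_P449878 (chr11:94204671-94204730, minus strand): ttttttaaatgagcctttctcctcatggac
Abcc3 A_52_P622067 (chr11:94225685-94225744, minus strand): tctctgaaacggatccaggatttcctgaac
Abcc4 A_51_P232597 (chr14:118883515-118883574, minus strand): tatttgaaacagcattgtgaccaccacgac
Abcc4 A_52_P630867 (chr14:118882104-118882163, minus strand): gccagtaaatgatgtagattcgtcctttat

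Over the 27 arrays, the log2 ratios of the Abcc1 probes correlated with each other at r = 0.945 to 0.991, those of the Abcc4 probes at 0.961 and those of the Abcc9 probes at 0.898 to 0.947. The Abcc5 probes correlated at 0.770 to 0.817. The Abcc3 probes followed each other least, at 0.578. A_51_P449878, which begins at base 4880 of the Abcc3 transcript, was well above background in Cy5 on all 27 arrays, whereas A_52_P622067, which begins at base 1849, was so on 5. In the reference the Abcc9 probes were well above background on at most 1 array, so the Abcc9 ratios have a denominator near background. The Abcc2 probe was well above background in Cy5 on 1 array and passed no test's filter, which required 3 arrays. The other 5 genes entered every test.

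Median Cy5 intensity ran from 81.8 to 226 over the arrays, and 58.9 to 69.3% of spots were well above background. Nfe2l2, the gene of Nrf2, had log2 ratios of -4.14 to -2.85 on the 9 arrays of mice without Nrf2 and of -1.47 to 1.27 elsewhere. Keap1 was read by 1 probe whose place relative to the deletion is not given. Its ratios were -0.26 to 0.64 in Keap1-/- and 0.42 to 1.00 in WT at P7, which overlap. In Nrf2-/-Keap1-/- they were -0.50 to -0.19, below WT, with a difference of -0.99 that was not called (adjusted p = 0.0792 in limma's test). The probe therefore does not settle the Keap1 genotype of the arrays. Markers of squamous epithelium were well above background in all groups, 10 of 10. So were all listed markers of smooth muscle and pericytes, skeletal muscle, fibroblasts, endothelium and leukocytes, also in the adult groups. Detection of markers therefore does not tell the tissues apart. Among the embryonic samples, the array labelled WT E11.5 replicate 3 correlated over genes at 0.980 and 0.976 with WT E15.5 replicates 2 and 3, but at 0.832 and 0.775 with the other arrays labelled E11.5. The array labelled WT E15.5 replicate 1 correlated at 0.957 and 0.927 with WT E11.5 replicates 1 and 2, but at 0.804 and 0.813 with the other arrays labelled E15.5. The labels were kept, and embryonic results are also given without both arrays. The Keap1-/- arrays were alone on their slide, their scan and, among P7 samples, the newer software version, so this genotype and those conditions cannot be told apart. The WT P7 arrays were also alone on their slide, and the WT P0 arrays shared no slide with another group. Differences from these groups therefore cannot be told apart from slide.

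**Figure D1:**
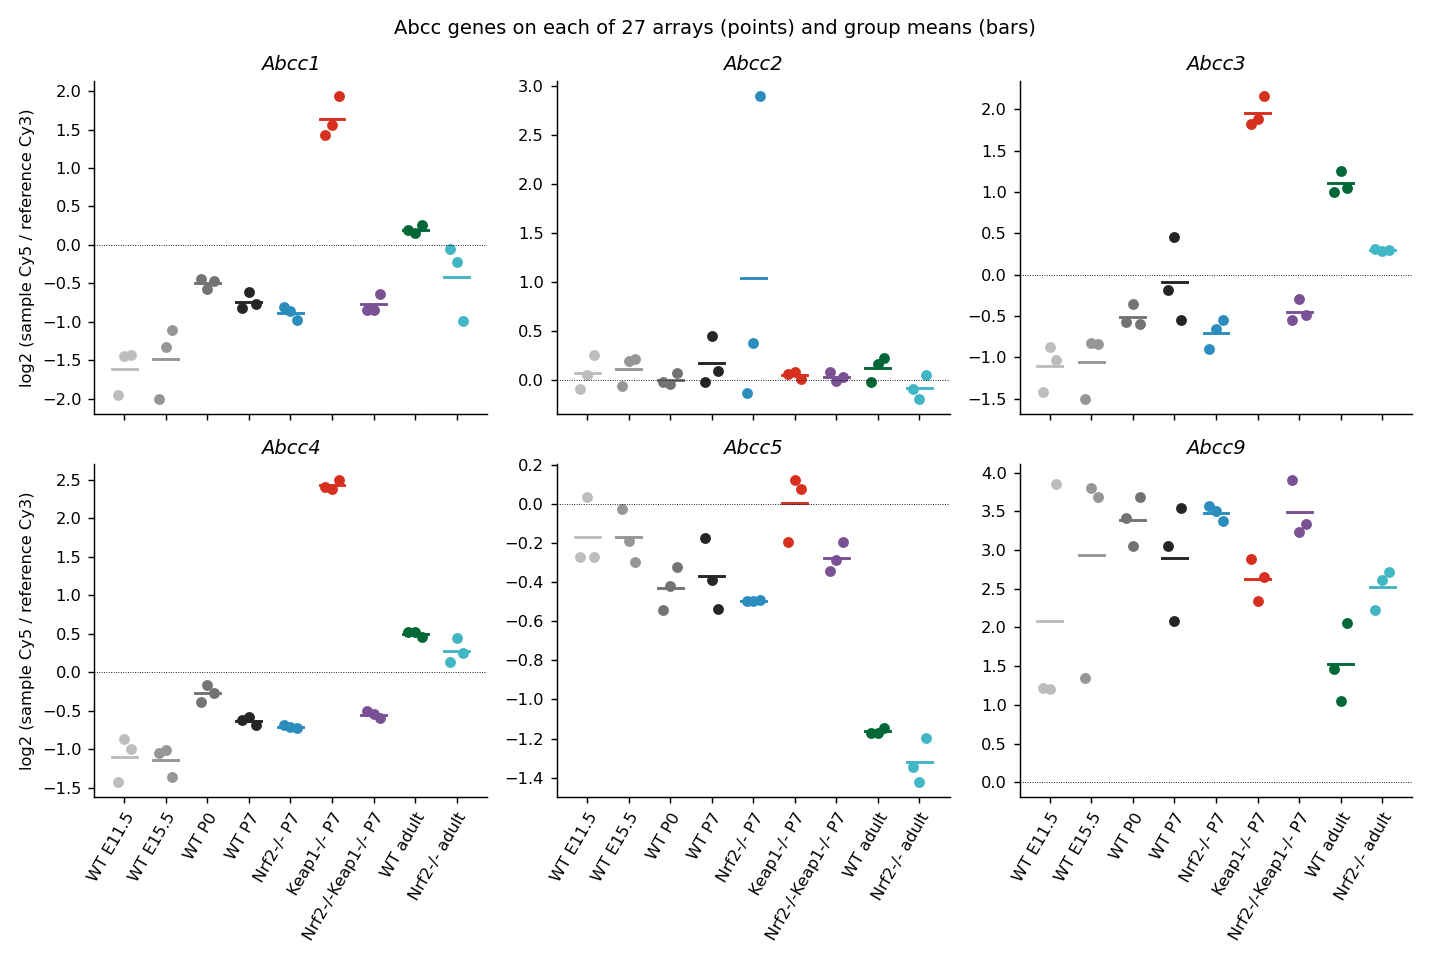
Log2 ratio of Cy5 (sample) to Cy3 (reference) of each Abcc gene on each of 27 arrays, by group; points are arrays and bars are means of 3. Abcc1, Abcc3 and Abcc4 were highest in the Keap1-/- group, Abcc5 was lowest in both adult groups, and Abcc2 rose on 1 Nrf2-/- P7 array.

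Abcc1, Abcc3 and Abcc4 had their highest group mean in Keap1-/- at P7 and the next highest in WT adult, with no overlap between the arrays of these groups. For Abcc1 the means were 1.64 ± 0.26 (SD, n = 3) and 0.20 ± 0.05, followed by Nrf2-/- adult at -0.42 ± 0.50. Abcc3 stood at 1.95 ± 0.18 in Keap1-/-, 1.1 ± 0.14 in WT adult and 0.30 ± 0.01 in Nrf2-/- adult. Abcc4 stood at 2.43 ± 0.06, 0.50 ± 0.03 and 0.27 ± 0.16 in the same groups. The lowest means of these genes were in the groups labelled E11.5 and E15.5, whose ranges overlapped for all 3. Neighbouring groups also overlapped among WT P7, Nrf2-/-Keap1-/- P7 and Nrf2-/- P7 for Abcc1 and Abcc3, and between WT P7 and Nrf2-/-Keap1-/- P7 for Abcc4. Abcc5 had a different order, in which all 7 younger groups lay between -0.49 and 0.01 with overlap from each group to the next, and the adult groups lay apart at -1.16 ± 0.01 in WT and -1.32 ± 0.11 in Nrf2-/-. Abcc9 ran from 3.50 ± 0.36 in Nrf2-/-Keap1-/- P7 to 1.52 ± 0.51 in WT adult, and each group in that order overlapped with the next.

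The comparison of genotypes at P7 asks what the loss of Keap1 does and whether it needs Nrf2. In Keap1-/- esophagi 4 of the 5 tested genes were called higher than in WT and none lower, among 33.3% of all 19246 tested genes called, 15.4% higher and 18% lower. Over the 4 genotypes together, the same 4 genes changed by limma's F-test, beside 33.8% of all genes. Abcc4, an exporter of cyclic nucleotides, prostanoids and conjugates, rose 8.32-fold. Abcc1, which exports glutathione conjugates and leukotriene C4, rose 5.20-fold, and Abcc3, an exporter of glucuronides, rose 4.13-fold. Abcc5, an exporter of cyclic nucleotides and nucleotide analogues, rose 1.29-fold. Abcc9 was not called. The median of the 5 genes was 2.04 on the log2 scale, beside -0.02 over all genes tested.

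Log2 ratios of Abcc4 were -0.63, -0.58 and -0.68 in WT at P7 and 2.40, 2.38 and 2.50 in Keap1-/-. All Keap1-/- arrays lay above all others of the series. The difference was 3.06 ± 0.08 (SE, adjusted p = 1.46e-09), the fifth smallest p among all genes tested. Both probes moved, A_52_P630867 by 3.58 and A_51_P232597 by 2.54, with mean Cy5 intensities of 901 and 13990 in WT and Keap1-/- for the former.

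Abcc1 read -0.82, -0.62 and -0.77 in WT at P7 and 1.43, 1.56 and 1.93 in Keap1-/-, again above every other array. The difference was 2.38 ± 0.13 (adjusted p = 4.93e-07), and its 3 probes gave 2.28 to 2.44. A_52_P601688, which shares no bases with the overlapping pair, was within this range.

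Abcc3 read -0.19, 0.46 and -0.55 in WT at P7 and 1.82, 1.88 and 2.16 in Keap1-/-, without overlap. The difference of the gene mean was 2.04 ± 0.22 (adjusted p = 6.68e-05). Its probes did not move alike. A_51_P449878 rose by 3.78 ± 0.23 (adjusted p = 5.39e-07), from a mean Cy5 intensity of 481 in WT to 6673 in Keap1-/-. A_52_P622067 changed by 0.30 ± 0.39 (adjusted p = 0.586) and was well above background on 1 of 3 WT and 3 of 3 Keap1-/- arrays. That WT array, replicate 2, read 1.63 on the dim probe and -0.72 on the bright one, and is the array on which the gene mean of WT was highest. The mean over both probes is therefore lower than the change of the probe that was measured well.

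Abcc5 read -0.17, -0.39 and -0.54 in WT at P7 and -0.19, 0.13 and 0.08 in Keap1-/-, so the groups overlapped. The difference was 0.37 ± 0.11 (adjusted p = 0.0291). One probe carried the call, A_51_P116421 at 0.74 (adjusted p = 0.00691), while the others gave 0.23 and 0.14 with adjusted p = 0.372 and 0.336. The call was lost without WT replicates 2 or 3 (adjusted p = 0.0598 and 0.103) and without Keap1-/- replicates 2 or 3 (0.109 and 0.0976). It held in 18 of 29 alternative settings in all. For Abcc9, arrays ranged from 2.09 to 3.54 in WT and from 2.34 to 2.88 in Keap1-/-, a difference of -0.27 ± 0.31 (adjusted p = 0.547). Without WT replicate 2 it was -0.67 with an adjusted p of 0.0467.

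**Figure D2:**
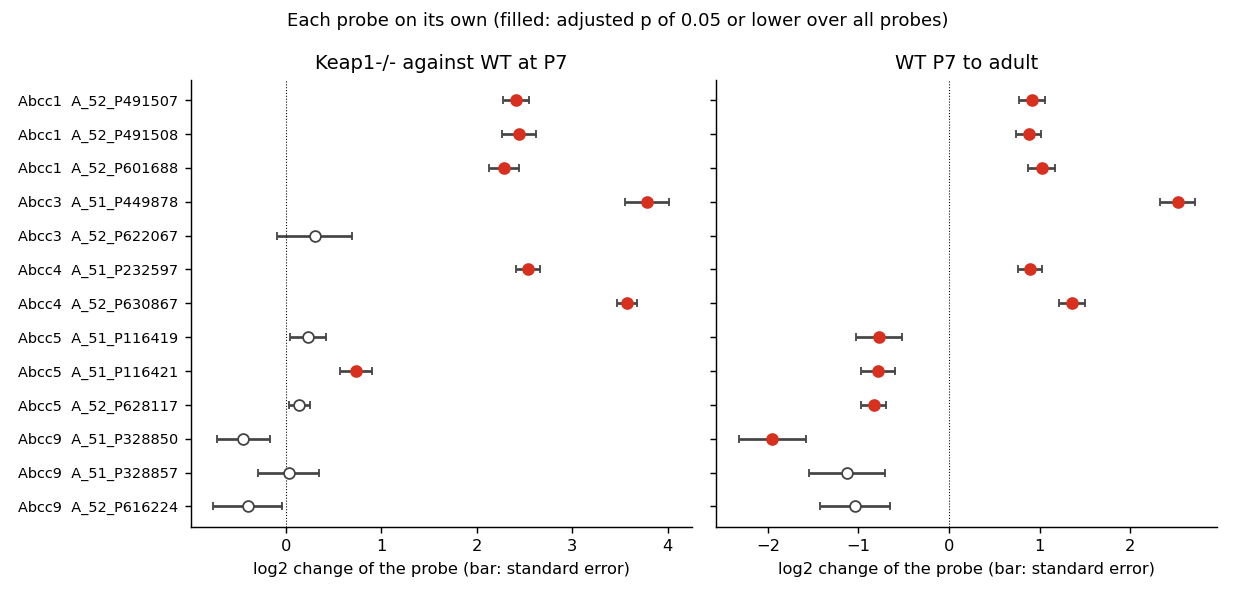
Log2 change of each probe tested on its own in Keap1-/- against WT at P7 (left) and from WT P7 to WT adult (right), with standard errors; filled points passed an adjusted p of 0.05. The 2 Abcc3 probes differ most at left, 3.78 against 0.30, and A_52_P622067 was too dim to be tested at right.

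Whether the change depended on Nrf2 was tested as an interaction. The change with loss of Keap1 was larger with Nrf2 present than without it by 2.27 ± 0.19 for Abcc1 (adjusted p = 2.56e-05), by 1.79 ± 0.31 for Abcc3 (adjusted p = 0.00350) and by 2.90 ± 0.11 for Abcc4 (adjusted p = 8.71e-08). With processed signals or the deposited ratios the Abcc3 interaction was 2.72 and no longer called (adjusted p = 0.0590 and 0.0593), and its dim probe A_52_P622067 alone gave 0.27 (adjusted p = 0.784), against 3.31 for the bright one. These were 3 of 5 genes, among 15.1% of all genes called for the interaction. For Abcc5 the interaction was 0.15 with a 95% interval of -0.21 to 0.51, and for Abcc9 it was -0.28 with an interval of -1.26 to 0.70, so neither was called. Keap1-/- also stood above Nrf2-/-Keap1-/- directly, by 2.41 for Abcc1, 2.40 for Abcc3 and 2.98 for Abcc4 (adjusted p = 4.65e-07, 2.33e-05 and 1.87e-09), beside 33.4% of all genes called. Abcc9 was lower by 0.87 in Keap1-/- than in Nrf2-/-Keap1-/- without overlap, with an adjusted p of 0.0542 that did not pass. The deviations of same-numbered samples of these groups correlated at r = 0.348, 0.212 and 0.118. Those of Nrf2-/- and Nrf2-/-Keap1-/- at P7 correlated at -0.355, -0.168 and -0.198. Such values therefore do not establish a pairing, and the labels give none. With the replicate number as a block the Abcc9 difference passed (-0.87 ± 0.26, adjusted p = 0.0328). It also passed with median centring (0.0184), with slide as a random block (0.0335) and with these groups alone in the fit (0.0192). It passed as well without WT replicate 2 (0.00850) or WT replicate 3 (0.0270), which enter only the estimate of the spread. In all, the Abcc9 difference was called in 8 of 28 alternative settings, over which its adjusted p reached 0.312.

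Without Nrf2 no member was called against WT at P7. In Nrf2-/- mice 0 of 5 genes passed in limma's test, beside 0.0156% of all genes. An unadjusted p under 0.05 was reached by 1 gene of 5, beside 10.8% of all genes. That gene was Abcc3, at -0.89, -0.66 and -0.55 in Nrf2-/-, just below the lowest WT array, with a difference of -0.61 ± 0.22 (adjusted p = 0.407). Abcc4 read -0.68, -0.71 and -0.72 in Nrf2-/-, and the 95% interval of its difference was -0.24 to 0.09. In Nrf2-/-Keap1-/- mice 0 of 5 genes passed, beside 0.426% of all genes, and none had an unadjusted p under 0.05, beside 17.5% of all. Abcc1 read -0.84, -0.84 and -0.64 there and Abcc4 read -0.51, -0.55 and -0.60. Intervals of the difference from WT were -0.32 to 0.25 for Abcc1, -0.83 to 0.12 for Abcc3, -0.09 to 0.24 for Abcc4, -0.16 to 0.34 for Abcc5 and -0.09 to 1.29 for Abcc9. Between Nrf2-/-Keap1-/- and Nrf2-/- no member and 0% of all genes passed in limma's test, with no member and 1212 genes at an unadjusted p under 0.05.

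Nrf2 binds antioxidant response elements, whose core is TGACNNNGC. This motif was searched on both strands in the promoter windows of RefSeq on build GRCm38.p6, from 250 bases before to 50 after each start, and occurred in 12.4% of 32851 windows. Of the 6 genes, Abcc2, Abcc4, Abcc5 and Abcc9 had an entry, and Abcc1 and Abcc3 are named only. The windows of Abcc5 and Abcc9 held no match. Those of Abcc2 and of both Abcc4 starts held 1 each, shown with 10 flanking bases on either side and the motif in capitals. A match of letters is a description and not a site of binding.
Abcc2, first base at position -98 from the start (chr19:43782210-43782218): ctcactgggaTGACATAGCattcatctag
Abcc4, position -23 of one start (chr14:118676946-118676954, minus strand): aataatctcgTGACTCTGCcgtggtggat
Abcc4, position -25 of the other start, on the opposite strand (chr14:118706236-118706244): cggcccgcccTGACCCCGCctctcggggc
The Abcc2 probe, of the pump known for carrying conjugates into bile, had log2 ratios of 0.01 to 0.08 in Keap1-/- and was not well above background on any of the 3 arrays.

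The genes around the pumps were counted by lists. Of 24 tested genes for glutathione supply and conjugation, 19 rose and 2 fell in Keap1-/- against WT, with a median of 2.43. Gstm3 and Gstm1, glutathione S-transferases, rose by 6.14 and 5.97, Gclc, the catalytic subunit of the rate-limiting enzyme of glutathione synthesis, rose by 6.04, and Slc7a11, a cystine importer, rose at least 62.0-fold, since its probe was not well above background in WT. Of 17 other Nrf2 target genes, 16 rose and none fell, among them Akr1b8 by 5.55, Nqo1 by 4.89, Srxn1 by 4.37 and Hmox1 by 3.17. Many of both lists are textbook targets of Nrf2, so they are not independent of the genotype.

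Other transport lists showed smaller changes in Keap1-/- mice. Among drug efflux pumps outside the family, Abcb1b, a P-glycoprotein, rose by 0.50, and none fell. Of 8 organic anion uptake carriers, which bring in the kind of compounds that Abcc pumps export, none rose and Slco4a1, Slco3a1 and Slco2b1 fell by 1.18, 0.53 and 0.44. Among 18 genes for glucuronide and sulfate conjugation, 3 rose (Sult2b1 by 1.21, Ugt1a6b by 1.06 and Sult1e1 by 0.55) and Papss1 fell by 0.55. Of 6 genes of leukotriene synthesis and processing, 2 rose, Ggt5 by 0.96 and Ggt1 at least 1.15-fold, since its probe was not well above background in WT, and 3 fell. The latter were Alox5, which makes leukotriene A4, by 1.03, Ltc4s, which makes the Abcc1 substrate leukotriene C4, by 0.88 and Lta4h by 0.53. Of 3 other KATP channel genes, the pore subunits Kcnj8 and Kcnj11 and the alternative regulatory subunit Abcc8, Kcnj8, known as the pore with Abcc9 in vessel walls, fell by 1.30. Abcc8 is also 1 of the 2 other tested Abcc genes, of which Cftr, a chloride channel, fell by 0.62.

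In Keap1-/- mice 5 of 7 fibroblast markers, 4 of 6 leukocyte markers and 5 of 11 markers of smooth muscle and pericytes were also lower, and 2 of the last were higher. Of 10 skeletal muscle markers 3 were higher and 0 lower, and of 10 squamous markers 2 were higher and 2 lower. Of 6 endothelial markers 1 was higher, as was 1 of 3 tested airway markers. The mean log2 ratio of the fibroblast list was 0.53 to 1.07 in Keap1-/- and 1.71 to 2.12 in WT, and that of the squamous list was 3.61 to 3.87 and 3.57 to 4.13. Their part in the results was not tested. In Nrf2-/- and Nrf2-/-Keap1-/- mice at P7 no gene of any of these transport and metabolic lists was called.

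**Figure D3:**
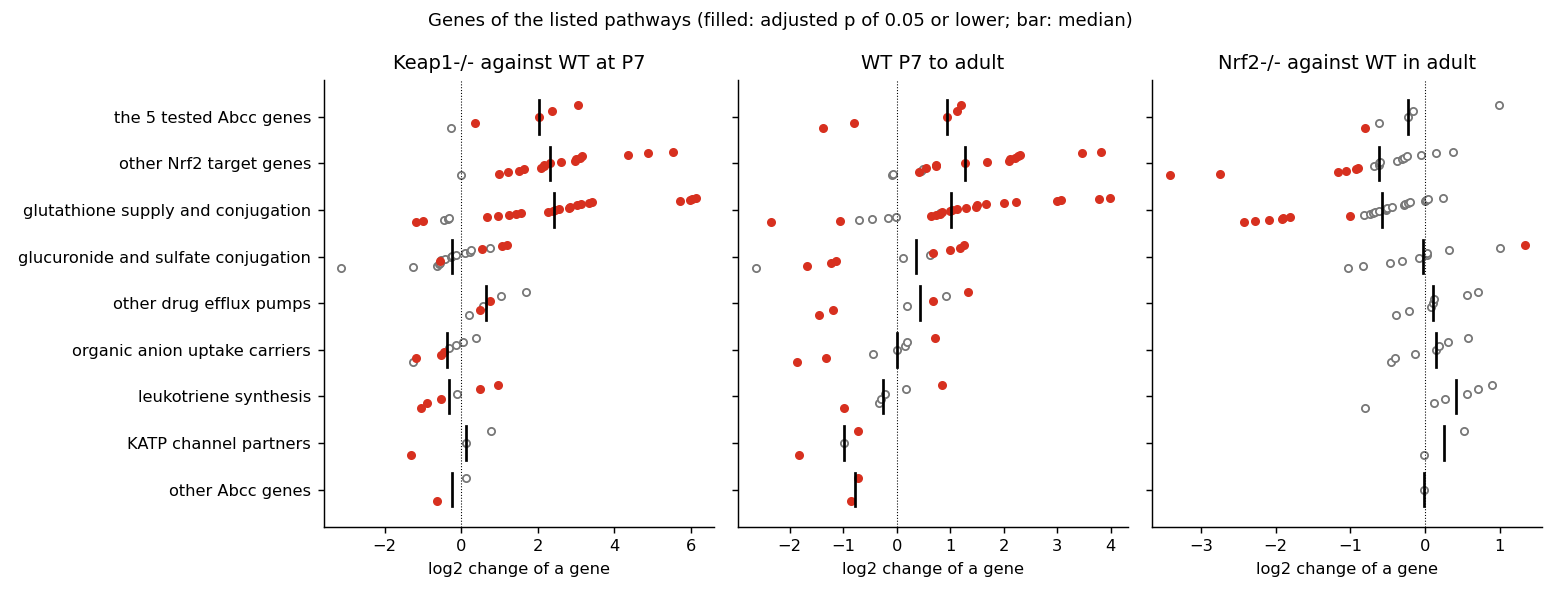
Log2 changes of single genes (points) in each list, with the list median (bar), for Keap1-/- against WT at P7, WT P7 to adult and Nrf2-/- against WT in adult; filled points passed an adjusted p of 0.05. Medians of the glutathione and Nrf2 target lists lie at 2.43 and 2.33 at left, 1.02 and 1.28 in the middle and -0.57 and -0.62 at right.

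The maturation comparison set WT P7 against WT adult. All 5 tested genes were called, beside 42.9% of 18168 genes, 3 higher and 2 lower in the adult, beside 20% higher and 22.9% lower of all. Abcc1, Abcc3 and Abcc4 were higher by 0.94 ± 0.12, 1.20 ± 0.25 and 1.13 ± 0.11 (adjusted p = 7.34e-04, 0.00683 and 2.48e-04), or 1.92-fold, 2.29-fold and 2.18-fold. Abcc5 was lower by 1.74-fold and Abcc9 by 2.59-fold. The P7 samples were whole esophagus and the adult samples epithelium, so age and tissue cannot be told apart here.

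Adult WT arrays read 0.20, 0.15 and 0.25 for Abcc1 and 0.52, 0.52 and 0.46 for Abcc4, well clear of P7. For Abcc3 they read 1.00, 1.26 and 1.05, above the highest P7 array at 0.46. Its bright probe rose by 2.52 ± 0.19 (adjusted p = 3.12e-05), but was marked as an outlier on adult replicates 1 and 2. Without marked spots the gene's change was 0.54 with an adjusted p of 0.234. There the bright probe's values on these 2 arrays were filled from additive probe and array effects, and so rest on the dim probe. The older software, used for these 2 arrays, marked 8.47 to 16.1% of spots per array and the newer 0.34 to 3.72%. The change of Abcc3 was not called either with own local backgrounds (0.92, adjusted p = 0.0789) or with processed signals (1.90, 0.0568).

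Abcc5 read -1.17, -1.17 and -1.15 in the adult, a difference of -0.80 ± 0.13 (adjusted p = 0.00254) that all 3 probes shared, at -0.83 to -0.78. With each spot's own local background it was -0.30 (adjusted p = 0.408). Abcc9 read 3.06, 2.09 and 3.54 at P7 and 1.46, 1.05 and 2.06 in the adult, where the highest adult array came just below the lowest P7 array. Its difference was -1.37 ± 0.39 (adjusted p = 0.0260). The call was lost without P7 replicates 1 or 3 (adjusted p = 0.0690 and 0.0707) or adult replicates 1 or 2 (0.0779 and 0.0885). Within the first scan, which held 3 P7 and 2 adult arrays, the changes were 0.91, 1.22, 1.15, -0.81 and -1.64 for Abcc1, Abcc3, Abcc4, Abcc5 and Abcc9.

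Several cell type lists moved with these results. In WT adult 10 of 10 skeletal muscle markers and 6 of 7 fibroblast markers were lower than at P7. So were 5 of 6 endothelial markers, 5 of 5 tested markers of enteric neurons and glia and 2 of 6 leukocyte markers. Of 11 markers of smooth muscle and pericytes, cells in which Abcc9 is known to be expressed, 6 were lower and 1 was higher. Of 10 squamous markers 4 were higher and 1 was lower, and the 1 tested airway marker was higher. The mean log2 ratio of the smooth muscle list was 2.88 to 3.1 at P7 and 2.14 to 2.38 in the adult, that of the skeletal muscle list 3.72 to 4.81 and 0.52 to 1.42. Of the KATP channel genes, Kcnj8 fell by 1.83 and Abcc8 by 0.73. The part of these cells in the Abcc9 and Abcc5 changes was not tested. Among the metabolic lists, 17 of 24 glutathione genes were higher and 2 lower, with Gstm3 up by 4.0 and Gstm1 by 3.78, and 13 of 17 Nrf2 targets were higher, with Hmox1 up by 3.82. Of the other efflux pumps, Abcb1b was higher by 0.68, and Slc47a1 and Abcg2 were lower by 1.45 and 1.18.

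In Nrf2-/- mice the same ages gave 4 calls of 5, beside 55% of 19577 genes, 27% higher and 28% lower. From P7 to adult Abcc3 rose by 1.00 and Abcc4 by 0.98, while Abcc5 fell by 0.83 and Abcc9 by 0.97 (adjusted p = 0.00176, 9.25e-06, 6.69e-05 and 0.0294). Scan as a block could be fitted only through WT adult replicate 3, the only WT array outside scan 1. Under that block Abcc3 changed by 1.08 (adjusted p = 0.0874) and was not called, and Abcc1 changed by 0.67 and was called (0.0229). The Abcc9 call was lost without Nrf2-/- P7 replicate 1 or 2 (0.0741 and 0.0661) or Nrf2-/- adult replicate 1 or 2 (0.0963 and 0.0547). Abcc1 changed by 0.46 ± 0.20 (adjusted p = 0.0646), and without Nrf2-/- adult replicate 3, its lowest adult array at -0.99, by 0.75 (adjusted p = 3.08e-04). It was also called with median centring (1.24, adjusted p = 0.00214), scale normalization (0.60, 0.00744) and the brightest probe (0.93, 1.56e-04). The change from P7 to adult was not shown to differ between the genotypes for any member. In limma's test 0 of 5 passed, beside 0.0919% of all genes, and none had an unadjusted p under 0.05, beside 11.2% of all. Intervals of that difference were -1.08 to 0.13 for Abcc1, -0.84 to 0.45 for Abcc3 and -0.44 to 0.15 for Abcc4.

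In adult epithelium, Nrf2-/- against WT called Abcc3 alone of 5 genes, beside 0.445% of 18217 genes. It read 0.31, 0.29 and 0.30 in Nrf2-/-, below all WT arrays, and the difference was -0.81 ± 0.12 (adjusted p = 0.0379), or 1.75-fold lower. Its bright probe gave -1.30 ± 0.15 (adjusted p = 0.0136). The call was close to the threshold. It was lost on leaving out any 1 of 5 arrays, with adjusted p from 0.0558 to 0.223, and of these 6 omissions it held only without WT adult replicate 3. The Nrf2-/- adult arrays shared no slide with WT adult, so genotype and slide cannot be told apart here. They were in scans 2 and 3 with the newer software, and WT adult replicates 1 and 2 in scan 1 with the older. Without WT adult replicate 3, genotype therefore cannot be told apart from scan or software either. With scan as a block the Abcc3 difference was -0.75 (adjusted p = 0.176), and with outlier-marked spots left out -0.15 (adjusted p = 0.789). In the latter setting the bright probe's values on WT adult replicates 1 and 2 were again filled in and rest on the dim probe.

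The other tested genes of this comparison were not called. Abcc1 read -0.05, -0.22 and -0.99 in Nrf2-/-, a difference of -0.62 ± 0.23 (adjusted p = 0.247). Nrf2-/- replicate 3, alone on its slide and in its scan, lay far below the others. Abcc4 read 0.13, 0.44 and 0.25, with a difference of -0.22 ± 0.12 (adjusted p = 0.395), and Abcc5 differed by -0.16 (adjusted p = 0.506). Abcc9 read 2.22, 2.61 and 2.72, higher by 0.99 ± 0.26 (adjusted p = 0.146), and it passed without WT adult replicate 3 (1.26, adjusted p = 0.0492). That omission leaves genotype inseparable from scan and software, as stated for Abcc3. With each spot's own local background Abcc9 differed by 2.06 and was called (adjusted p = 0.0289), while Abcc3 was not (-0.52, adjusted p = 0.121). The skeletal muscle list was also higher in Nrf2-/-, at 1.36 to 2.53 against 0.52 to 1.42, with 0 of 10 genes called, and the smooth muscle list lay at 2.24 to 2.29 against 2.14 to 2.38. Of the 24 glutathione genes 7 fell and none rose, led by Mgst1 at -2.42, and 6 of 17 Nrf2 targets fell and none rose, led by Nqo1 at -3.41. No gene of the other efflux pumps, the uptake carriers, leukotriene synthesis or the KATP channel was called.

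**Figure D4:**
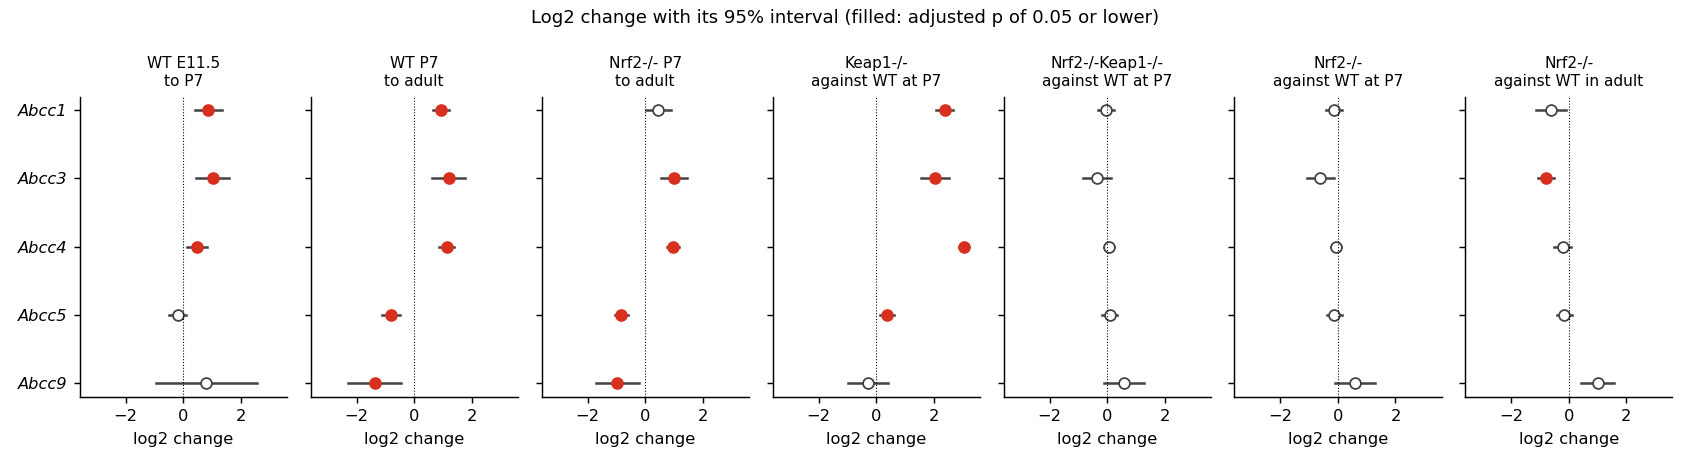
Log2 change (points) with its 95% interval (lines) of the 5 tested Abcc genes in 7 comparisons; filled points passed an adjusted p of 0.05. In Keap1-/- Abcc1, Abcc3 and Abcc4 lie at 2.04 to 3.06, in Nrf2-/-Keap1-/- at -0.36 to 0.08, and Abcc5 lies below 0 in both changes from P7 to adult.

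The metaplasia phase, from the columnar epithelium at E11.5 to the keratinized squamous epithelium at P7, was read in WT only. Over its 4 ages Abcc1, Abcc3 and Abcc4 changed (adjusted p = 0.00602, 0.0330 and 0.00439 by limma's F-test), beside 30.1% of 19915 genes, and Abcc5 and Abcc9 were not called. The Abcc3 call over the ages was near the threshold. It was lost with each spot's own local background (adjusted p = 0.0732), processed signals (0.186), deposited ratios (0.187), median centring (0.0783) and slide as a random block (0.0631), and without WT E11.5 replicate 1, WT P7 replicate 1 or 2 or any P0 array (0.0573 to 0.0723). No gene of the table, and 0 of 5 members, passed between the groups labelled E11.5 and E15.5 (0%), with 0 members and 327 genes at an unadjusted p under 0.05. The rise came between E15.5 and P0, at 0.99 ± 0.22 for Abcc1 (adjusted p = 0.0104) and 0.87 ± 0.15 for Abcc4 (adjusted p = 0.00379), 2 of 5 genes beside 19.7% of all. Abcc3 differed by 0.55 ± 0.26 (adjusted p = 0.174) at this step, and its bright probe alone by 1.06 (adjusted p = 0.0459). From P0 to P7 no member passed, beside 2.44% of all genes. An unadjusted p under 0.05 was reached by 1 member, Abcc4 at -0.35, beside 14.2% of all genes.

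Arrays labelled E11.5 read -1.95, -1.44 and -1.44 for Abcc1, the next ones, labelled E15.5, read -2.00, -1.33 and -1.11, and P0 read -0.44, -0.57 and -0.47, where all arrays lay above all embryonic ones. Abcc4 read -1.43, -0.87 and -1.0, then -1.05, -1.01 and -1.37, and then -0.39, -0.17 and -0.27, with the same separation. Abcc3 read -1.41, -0.88 and -1.04, then -1.50, -0.82 and -0.84, and -0.57, -0.35 and -0.59 at P0, also without overlap. Over the whole phase, from E11.5 to P7, Abcc1 rose by 0.87 (adjusted p = 0.0129), Abcc3 by 1.02 (adjusted p = 0.0160) and Abcc4 by 0.47 (adjusted p = 0.0406), 3 of 5 genes beside 30.2% of all. Without WT E11.5 replicate 1 these 3 were no longer called (adjusted p = 0.0537, 0.0652 and 0.140), and without WT P7 replicate 2 Abcc3 and Abcc4 were not (0.0501 and 0.0991). The Abcc4 call was also lost without WT P7 replicate 1 (0.0929) or 3 (0.0748) and without any P0 array (0.0536 to 0.0596). The Abcc4 probes gave 0.87 for A_52_P630867 (adjusted p = 0.0113) and 0.07 for A_51_P232597 (0.726) from E11.5 to P7. By limma's F-test over the ages the latter probe was not called either (adjusted p = 0.0814). Among the lists, 9 of 23 glutathione genes rose and none fell from E15.5 to P0, led by Gsto1 at 5.33, and 7 of 17 Nrf2 targets rose, led by Me1 at 2.01. Markers rose as well, 7 of 10 of skeletal muscle, 3 of 10 of squamous epithelium and 3 of 6 of leukocytes. So did 1 of 3 tested airway markers, while 2 of 6 markers of enteric neurons and glia and 1 of 7 fibroblast markers fell. The part of these cells in the Abcc changes was not tested.

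Abcc9 depended on the embryonic arrays that stand apart. The group labelled E11.5 read 1.21, 1.20 and 3.85 for this gene, and the group labelled E15.5 read 1.34, 3.80 and 3.68. Each group thus held low and high arrays, and the array labelled E11.5 replicate 3 was the high one of its group and that labelled E15.5 replicate 1 the low one. With all arrays the step was 0.85 ± 0.79 (adjusted p = 0.996), and without these arrays it was 2.53 ± 0.39 (adjusted p = 0.00293). From E11.5 to P7 Abcc9 then changed by 1.69 (adjusted p = 0.00478) in place of 0.81 (adjusted p = 0.475). Without both arrays the calls of Abcc1 and Abcc4 from E15.5 to P0 were kept, at 0.72 and 0.91 (adjusted p = 0.0126 and 0.00702), as were those of Abcc1, Abcc3 and Abcc4 from E11.5 to P7, at 0.96, 1.05 and 0.52 (adjusted p = 0.00130, 0.0119 and 0.0396). The smooth muscle list ran from 1.14 to 2.81 in the group labelled E11.5 and from 1.47 to 2.80 in that labelled E15.5. All 12 arrays of the phase were in 1 scan.

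Across the 27 arrays, Abcc1, Abcc3 and Abcc4 followed each other, with r = 0.938 between Abcc1 and Abcc3, 0.952 between Abcc1 and Abcc4 and 0.932 between Abcc3 and Abcc4. Pairs that included Abcc2, Abcc5 or Abcc9 had r from -0.281 to 0.219. The arrays share the reference and fall into groups, and the Keap1-/- arrays set much of the range, so these are descriptions. Of 20949 genes measured on all arrays, the most like Abcc1 were ENSMUST00000058162 (0.966), Abcc4 and Srxn1 (0.942), which encodes sulfiredoxin. The most like Abcc3 were Ptgr1 (0.973), a reductase of prostaglandins and leukotriene B4, Gstm1 (0.960) and Gss (0.956), glutathione synthetase. Those most like Abcc4 were Srxn1 (0.974), ENSMUST00000058162 (0.972) and Slc7a11 (0.963). Abcc5 was followed by Smim3 (0.932), Rcsd1 (0.931) and Obsl1 (0.929), and Abcc9 by ENSMUST00000124404 (0.940), Aspa (0.939) and Tmem204 (0.929).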

How the data were processed

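RNA of 27 mouse esophagus samples in 9 groups of 3, each from an individual esophagus per the methods, was hybridized to Agilent 2-colour arrays. The deposited scanner tables hold spot intensity in both channels and, per the file headers, a log10 ratio made by Feature Extraction 10.5.1.1 or 10.7.3.1; the submitters' processing notes name version 9.1. From the mean and background intensity, log2 Cy5/Cy3 was computed with limma 3.58.1 in R 4.3.3 by normexp (offset 50) and loess within each array, with control spots at weight 0. Spots whose local background exceeded 5 times the array median were set missing and filled from additive probe and array effects. Probes of a gene were averaged. The filter kept genes with a probe that Cy5 raised well above background on 3 or more arrays of the fit. Fits covered the WT ages to P7, WT P7 and adult, the P7 genotypes, the adults, and both ages of WT and Nrf2-/-. Moderated statistics were adjusted by Benjamini-Hochberg over all tested genes and called at 0.05. limma was used in place of the SAM test of the methods. The number of arrays limits the precision.

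The members and lists were chosen with earlier results of these data known. Up to 4 called genes with the largest change were named per list, and the 3 most correlated genes per member. Alternatives covered background, normalization, filter, probe choice, outlier-marked spots, the deposited ratios, blocks for replicate, slide, scan and software, and leaving out each array. No main fit held a block for replicate. A rule marked 2 groups as possibly paired where all 3 correlations of same-numbered deviations exceeded 0.1. This held for Keap1-/- with Nrf2-/-Keap1-/- at P7 (0.118 to 0.348), WT P0 with P7 (0.115 to 0.355) and WT E11.5 with P7 (0.120 to 0.187). The rule rests on these data and not on the labels, and meeting it does not establish a pairing. Columns of the authors' own error estimates were not used. One gene of the list of other efflux pumps is not reported here. The procedure was tested on simulated data.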

Additional observations from a re-analysis of the deposited data

Results flagged for a closer look

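Of the 5 tested Abcc genes, Abcc1, Abcc3 and Abcc4 stood out because the effect of losing Keap1 at P7 differed between mice with and without Nrf2, as tested by the interaction term in limma. The difference of the 2 effects on the log2 scale was 2.27 for Abcc1, 1.79 for Abcc3 and 2.90 for Abcc4. The Keap1-/- arrays were alone in their scan, so genotype and scan cannot be told apart in these values. The Abcc3 value was not called with processed signals (2.72, adjusted p = 0.0590) or the deposited ratios (2.72, adjusted p = 0.0593).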

How the results depend on the processing

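Of 2243 values of single Abcc genes under an alternative, 2030 kept their call and direction, 96 lost a call, 34 gained one, 83 changed sign without being called under either, and 0 were called with the sign turned. Of 428 counts of called members, 404 were within 1.5 times the reported count. From E11.5 to E15.5 the count was 1 (Abcc9) without both embryonic arrays that stand apart, in place of 0. From E15.5 to P0 it was 1 with median centring and 4 with each probe on its own, in place of 2. From E11.5 to P7 it was 1 with processed signals, deposited ratios or median centring, in place of 3, and 0 to 3 on leaving out 1 array. From WT P7 to adult it was 3 with each spot's own local background, in place of 5. For Keap1-/- against Nrf2-/-Keap1-/- it was 5 with the brightest probe or each probe on its own, in place of 3. For Nrf2-/- against WT in adult it was 0, in place of 1, with outlier-marked spots left out, processed signals, deposited ratios, median centring, slide as a random block or scan as a block, and 0 to 2 on leaving out 1 array. The causes were not tested.

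Same-numbered replicates met the rule for pairing, which was taken from these data, in 3 of the comparisons. These were Keap1-/- against Nrf2-/-Keap1-/-, WT P0 to P7 and WT E11.5 to P7. With the replicate number as a block, Abcc9 gained its call in the first of these and no call changed in the other two. In the other comparisons the rule was not met. There the adult count was 0 under the block, with Abcc3 at -0.81 (adjusted p = 0.123). Abcc5 lost its calls over the P7 genotypes (adjusted p = 0.0573) and in Keap1-/- against WT (0.0513). The block changed no other call. Scan as a block could not be fitted for the Keap1-/- comparisons and was not run where there was 1 scan, and software as a block was fitted for both ages only. Abcc9, dim in Cy3, has no value where both colours had to be above background.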

Other observations

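The Abcc2 probe was well above background in Cy5 on 1 array of 27, Nrf2-/- P7 replicate 3, where its log2 ratio was 2.89 and its mean Cy5 intensity 283 over a local background of 33. Replicates 1 and 2 of that group had intensities of 45.9 and 55.1. The other 26 arrays lay between -0.19 and 0.45 in log2 ratio, and Abcc2 entered no test.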
